A study of Mus musculus with 4 samples.

Results

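N-cadherin (Cdh2), R-cadherin (Cdh4), K-cadherin (Cdh6), cadherin 8 (Cdh8) and cadherin 11 (Cdh11), the classical cadherins of neural and mesenchymal cells, were followed in rostral and presumptive caudal cells of mouse embryonic stem cell (ESC) aggregates. They were taken as every probe set that the array annotation assigns to one of these 5 genes alone, which gave 12 of the 45101 probe sets. The study used a Rax::GFP reporter ESC line, grown without added growth factors as floating aggregates (SFEBq), and Rax marks the future rostral forebrain. On culture day 4.5 the aggregates were dissociated and sorted into Rax::GFP- cells, the presumptive caudal cells, and Rax::GFP+ cells, the rostral cells, with 2 arrays for each group. Both groups came from the same reporter line and the same untreated culture, each RNA sample was pooled from many aggregates, and GFP- cells were all cells without reporter signal, whatever their fate.

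Classical cadherins are transmembrane proteins that hold neighbouring cells together through calcium-dependent binding of their outer domains, and their tails bind beta-catenin and p120-catenin, which link them to actin. Cdh2 and Cdh4 belong to type I and Cdh6, Cdh8 and Cdh11 to type II, 2 subgroups that differ in the binding surface of the outermost domain. As the neural plate forms, ectoderm exchanges E-cadherin (Cdh1) for N-cadherin, and the type II members later mark regions of the brain, the neural crest and mesenchyme.

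Values are log2 levels made by RMA, a method that removes background and brings all arrays to 1 distribution, which hides any change in total RNA per cell. Array medians lay between 5.84 and 5.86 in GFP- cells and between 5.88 and 5.89 in GFP+ cells. Probe sets bind with different strength, so levels were compared between cell groups and not between genes. All differences are GFP- minus GFP+ and were tested with limma on all probe sets, with p-values adjusted by the Benjamini-Hochberg method and called under 0.05. By exact permutation, 2 arrays a group allow no p below 0.333. In sorted populations, fewer cells with a transcript and less transcript per cell cannot be told apart.

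The sort was checked by its markers. Rax was at 8.58 and 8.88 in GFP- cells, against 10.70 and 10.86 in GFP+ cells, so GFP- cells were lower but not without signal. Of 7 measured neuroectoderm markers, 4 were lower in GFP- cells and none was higher. Sox1, a neural plate marker, differed by -0.71 (limma adjusted p = 0.0321). Of 6 rostral markers, 5 were lower, and of 8 caudal markers, 4 were higher, among them Irx3. GFP- cells also carried markers of other cells. Of 8 pluripotency markers, 6 were higher in GFP- cells, among them Pou5f1, which encodes Oct3/4, and of 8 endoderm markers, 5 were higher, among them Sox17.

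Of the 12 cadherin probe sets, 4 were lower in GFP- cells, both of Cdh2 and both of Cdh6, and none was higher. Over all probe sets, 3.82% were lower and 3.64% were higher in GFP- cells, 7.47% in all. In 8 cadherin probe sets both GFP- arrays lay below both GFP+ arrays, and in 1 they lay above, where the shares over all probe sets were 24.9% and 32.5%. The median log2 difference of the 12 was -0.42, beside 0.032 over all probe sets. A filter on dim probe sets (log2 of 5 or more on 2 or more arrays) kept 8 of the 12. Those below it were the 3 of Cdh8 and 1 of Cdh4.

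**Figure D1:**
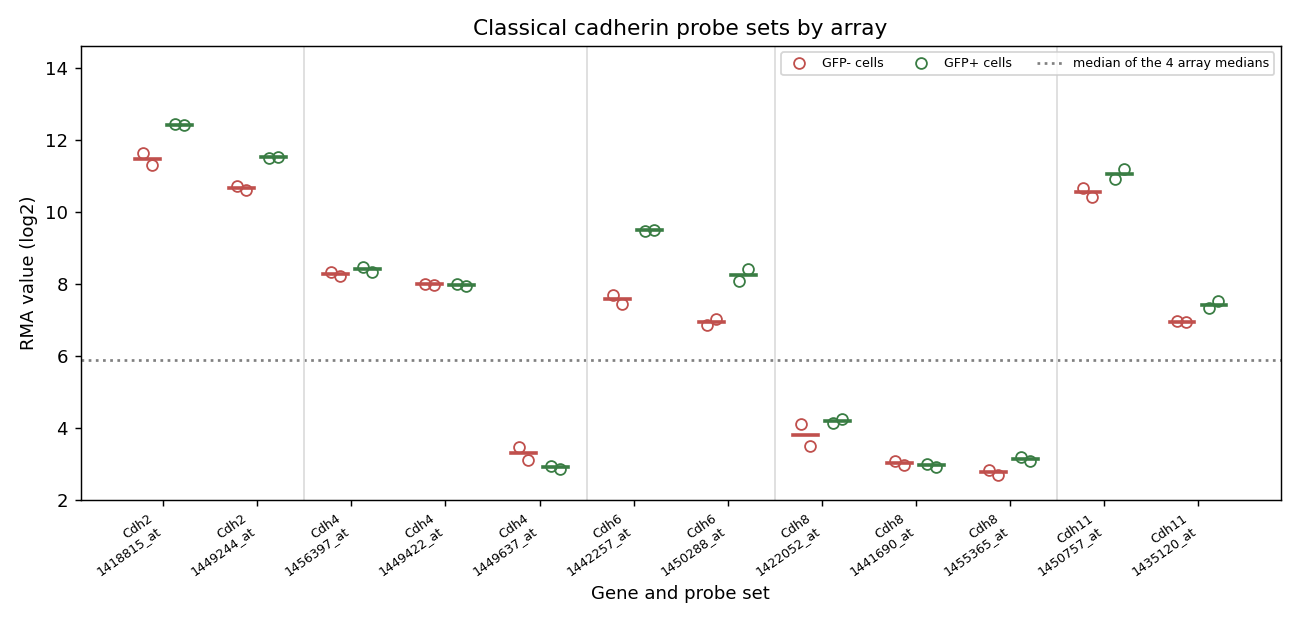
RMA value (log2, y axis) of each cadherin probe set (x axis) on the 2 arrays of GFP- cells (red, left) and the 2 of GFP+ cells (green, right), with bars at group means and a dotted line at the median of the array medians. Cdh6 at 1442257_at averaged 7.56 in GFP- and 9.47 in GFP+ cells, while the 3 probe sets of Cdh8 lay below the dotted line on every array.

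Cdh6, a type II cadherin of neural tube regions, kidney and neural crest, had the largest difference of the 5 genes. At its more expressed probe set, 1442257_at, it was at 7.68 and 7.44 in GFP- cells, against 9.46 and 9.49 in GFP+ cells. The GFP- arrays were both lower, by far more than the spread within either group. GFP- cells were lower by a log2 difference of -1.91 (SE 0.11, limma adjusted p = 0.00646), which is 3.77-fold lower in GFP- cells with a 95% interval of 3.09 to 4.59. The other probe set, 1450288_at, was at 6.86 and 7.02 in GFP- cells, against 8.07 and 8.39 in GFP+ cells. Here the log2 difference was -1.29 (SE 0.14, limma adjusted p = 0.0185), or 2.45-fold lower. The 2 probe sets of Cdh6 therefore fell together and differed in size, and the difference between them was not tested. Both calls held without either GFP+ array, at adjusted p of 0.0375 and 0.0402 without GFP+ replicate 1 and 0.0201 and 0.0289 without GFP+ replicate 2. They were lost when GFP- replicate 1 was left out (0.0937 and 0.155) and when GFP- replicate 2 was (0.105 and 0.128), as were those of all other probe sets on the array, since limma then called 0 of 45101, although 3846 and 4118 had an unadjusted p under 0.05 toward lower values in GFP- cells and 3858 and 3579 toward higher ones.

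The promoter of Cdh6 is shown because this gene had the largest difference, and RefSeq promoter windows were at hand for Cdh6 and Cdh8 of the 5 genes. The window covers 250 bases before the start site and 50 from it, on the minus strand of GRCm38.p6 at chr15:13173626-13173925. Capitals mark matches to the E-box CANNTG, whose inner bases are free, and to AACAAAG, a motif of Sox factors. Both were searched on both strands and do not overlap here.
Cdh6: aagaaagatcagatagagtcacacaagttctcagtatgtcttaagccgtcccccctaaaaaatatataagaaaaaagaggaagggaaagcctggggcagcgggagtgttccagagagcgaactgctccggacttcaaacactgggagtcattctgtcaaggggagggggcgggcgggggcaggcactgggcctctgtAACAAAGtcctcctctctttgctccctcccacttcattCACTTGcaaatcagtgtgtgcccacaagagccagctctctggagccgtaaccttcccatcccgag
The window holds 1 match to AACAAAG, which begins 53 bases before the start site, and 1 E-box, which begins 15 bases before it. Of 32544 different promoter windows of this length, 5.85% hold AACAAAG and 72.3% hold an E-box, so a match to the E-box is common. No binding was measured here.

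Cdh2 encodes N-cadherin, the main classical cadherin of the neural plate. At its most expressed probe set, 1418815_at, it was at 11.61 and 11.31 in GFP- cells, against 12.44 and 12.40 in GFP+ cells. Both GFP- arrays were below both GFP+ arrays, and all 4 values were far above the array medians. GFP- cells were lower by a log2 difference of -0.96 (SE 0.12, limma adjusted p = 0.0267), which is 1.94-fold lower in GFP- cells with a 95% interval of 1.55 to 2.44. The other probe set, 1449244_at, was at 10.70 and 10.60 in GFP- cells, against 11.49 and 11.52 in GFP+ cells. Its log2 difference was -0.86 (SE 0.08, limma adjusted p = 0.0137), or 1.81-fold lower, and each estimate lay within the interval of the other. The call at 1418815_at was lost without any 1 array, at adjusted p of 0.103 without GFP+ replicate 1, 0.0644 without GFP+ replicate 2, 0.106 without GFP- replicate 1 and 0.123 without GFP- replicate 2, while its log2 difference stayed between -1.11 and -0.80. That at 1449244_at passed without GFP+ replicate 2 (0.0367) and was lost without GFP+ replicate 1 (0.0594), GFP- replicate 1 (0.126) or GFP- replicate 2 (0.123).

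Cdh11, a cadherin of mesenchyme, crest and brain, had lower values in GFP- cells at both probe sets without passing the test. At 1450757_at it was at 10.66 and 10.40 in GFP- cells, against 10.89 and 11.18 in GFP+ cells, a log2 difference of -0.51 (limma adjusted p = 0.117, 95% interval -0.89 to -0.12). At 1435120_at it was at 6.95 and 6.93 in GFP- cells, against 7.32 and 7.50 in GFP+ cells, a log2 difference of -0.47 (limma adjusted p = 0.0558, 95% interval -0.71 to -0.23). At neither probe set did the groups overlap, and both unadjusted intervals excluded 0. When the 2 probe sets were averaged before the fit, which then tested genes, the difference was -0.49 and passed (limma adjusted p = 0.04). Of 8 measured markers of mesoderm and mesenchyme, 1 was higher in GFP- cells, the receptor gene Pdgfra, and none was lower. Their summed linear level was 789 to 825 in GFP- cells and 413 to 414 in GFP+ cells, and without Pdgfra the other 7 summed to 314 to 344 in GFP- cells and 292 to 303 in GFP+ cells. Of the 8, 4 lay below the median of every array (Tbx6, Meox1, Col1a1 and Col3a1), and Twist1 and Pdgfra lay above it. Of 7 neural crest markers, 2 were higher in GFP- cells, Foxd3 and Ets1, and 1 was lower, Snai2, with summed levels of 707 to 742 in GFP- cells and 477 to 484 in GFP+ cells, and the part of these markers in the Cdh11 and Cdh6 values was not tested.

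A pseudogene of Cdh11, annotated as 2610005L07Rik and listed as transcribed in RefSeq, has 8 probe sets of its own, which are not counted among the 12. Of these, 4 were lower in GFP- cells and none was higher, with called log2 differences between -1.73 and -0.86. The probe set 1429882_at was at 8.22 and 8.72 in GFP- cells, against 10.49 and 9.90 in GFP+ cells (log2 difference -1.73, limma adjusted p = 0.0367). The most expressed, 1452997_at, was at 11.10 and 11.22 in GFP- cells, against 11.50 and 11.47 in GFP+ cells, and did not pass (log2 difference -0.32, limma adjusted p = 0.0878). One probe set of the pseudogene, 1440387_at, lay the other way, at 6.14 and 6.21 in GFP- cells, against 5.86 and 5.87 in GFP+ cells. The signals of Cdh11 and its pseudogene thus lay lower in GFP- cells at all but that probe set. Whether RNA of one reaches probes of the other was not tested. Without GFP+ replicate 1 none of these calls held (adjusted p = 0.0962 at 1429882_at and 0.0645 at 1440184_at), and without GFP+ replicate 2 those at 1437717_x_at (0.0797) and 1436740_at (0.0728) were lost.

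Cdh4, R-cadherin of the retina and forebrain and the closest type I relative of Cdh2, did not pass at any of its 3 probe sets. At 1456397_at it was at 8.32 and 8.21 in GFP- cells, against 8.47 and 8.31 in GFP+ cells, and the groups overlapped. The log2 difference was -0.13 with a 95% interval of -0.38 to 0.12 (limma adjusted p = 0.458). At 1449422_at it was at 7.99 and 7.96 in GFP- cells, against 8.0 and 7.93 in GFP+ cells, a log2 difference of 0.013 (95% interval -0.18 to 0.21, limma adjusted p = 0.939). At both of these probe sets, intervals excluded a difference of the size seen for Cdh2. The third, 1449637_at, was dim, at 3.47 and 3.09 in GFP- cells, against 2.93 and 2.85 in GFP+ cells, and lay the other way (log2 difference 0.39, limma adjusted p = 0.190).

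Cdh8, a type II cadherin of brain regions, was not measured well. Its most expressed probe set, 1422052_at, was at 4.10 and 3.50 in GFP- cells, against 4.11 and 4.23 in GFP+ cells, a log2 difference of -0.37 (95% interval -0.95 to 0.20, limma adjusted p = 0.357). The GFP- arrays differed from each other by more than the groups did. At 1455365_at the values were 2.83 and 2.69 in GFP- cells, against 3.18 and 3.07 in GFP+ cells (log2 difference -0.37, limma adjusted p = 0.0886). At 1441690_at they were 3.07 and 2.95 in GFP- cells, against 2.98 and 2.91 in GFP+ cells (log2 difference 0.063, limma adjusted p = 0.693). All 3 lay below the median of every array, and the interval at 1422052_at spans both directions.

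**Figure D2:**
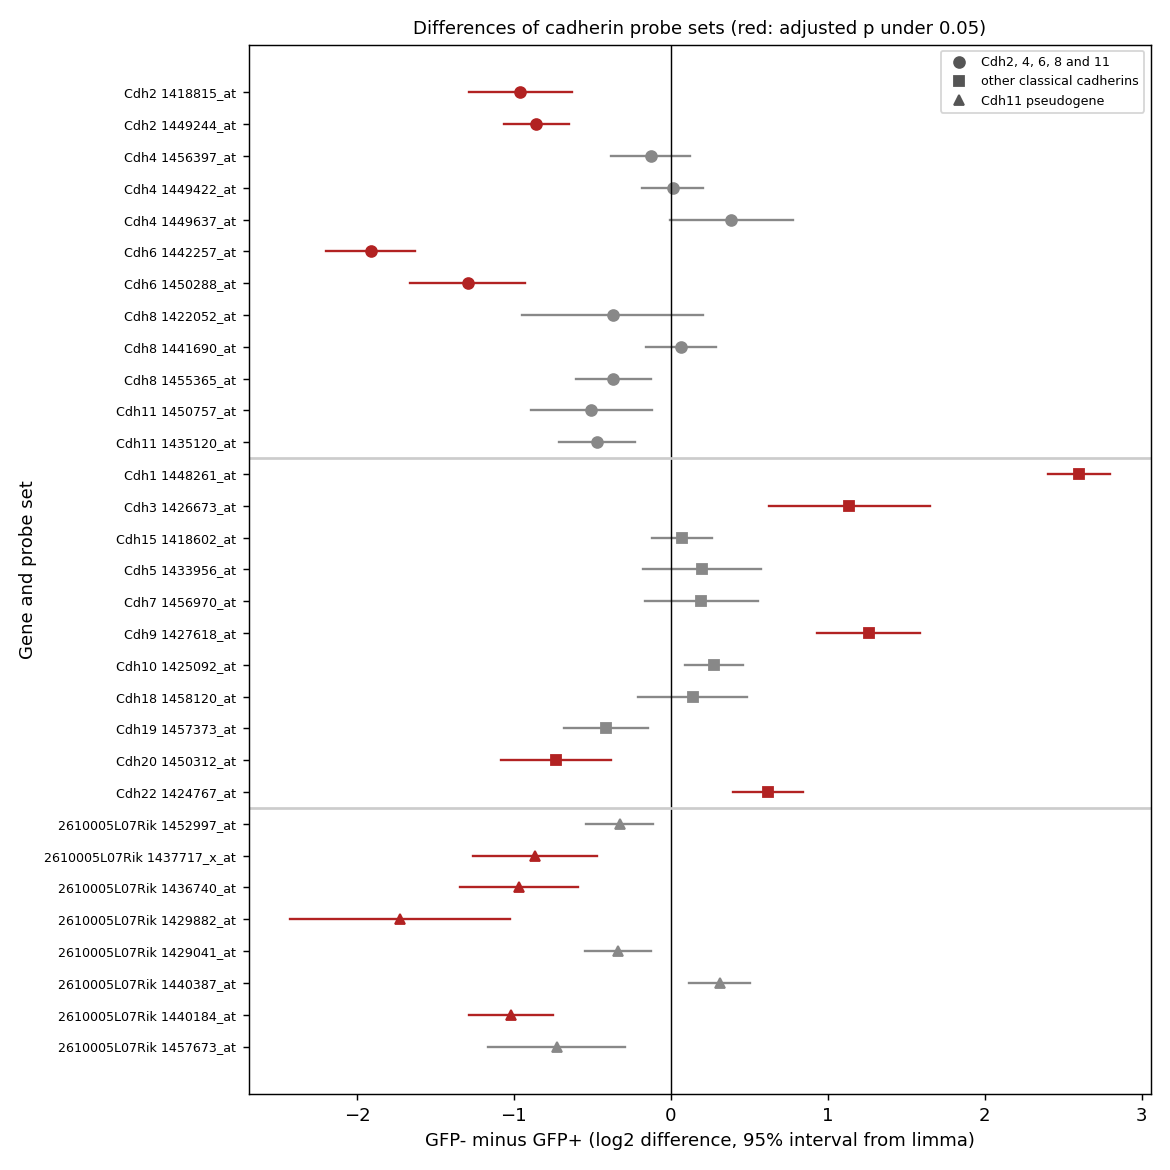
Difference between GFP- and GFP+ cells on the log2 scale (x axis, lines are 95% intervals from limma) for probe sets (y axis) of the 5 cadherins (circles), other classical cadherins by their most expressed probe set (squares) and the Cdh11 pseudogene (triangles), red where the adjusted p is under 0.05. Cdh1 stands farthest right at 2.60 and Cdh6 farthest left at -1.91.

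Cadherins of the same classes outside these 5 genes were set beside them. Of the 3 other type I genes measured, 2 were higher and 0 lower in GFP- cells, where 5.4% of all 18194 genes, each by its most expressed probe set, were higher and 2.63% lower. Cdh1, which encodes E-cadherin of epiblast and epithelia, was at 11.99 and 11.97 in GFP- cells, against 9.42 and 9.35 in GFP+ cells. Its log2 difference of 2.60 (SE 0.07, limma adjusted p = 0.0044) was opposite in sign to that of Cdh2. The call of Cdh1 held without either GFP+ array and was lost when a GFP- array was left out, as was every other call. Cdh3, P-cadherin, was at 6.50 and 6.25 in GFP- cells, against 5.48 and 5.0 in GFP+ cells (log2 difference 1.14, limma adjusted p = 0.0443), and its dimmer probe set did not pass, so that the mean of both differed by 0.61. Cdh15, M-cadherin of muscle, differed by 0.071 (limma adjusted p = 0.594). Pluripotency and endoderm markers were higher in the same GFP- cells as Cdh1. The summed linear level of the 8 pluripotency markers was 10138 to 10588 in GFP- cells and 1570 to 1623 in GFP+ cells, and that of the 8 endoderm markers was 2704 to 2879 in GFP- cells and 603 to 809 in GFP+ cells. For the 7 neuroectoderm markers, of which Sox1, Pax6, Hes5 and Sox3 were lower in GFP- cells and Sox2, Nes and Msi1 did not pass, it was 11329 to 11436 in GFP- cells and 15377 to 15398 in GFP+ cells. Most of the GFP- sum was Sox2, and the other 6 summed to 3711 to 4024 in GFP- cells and 6132 to 6820 in GFP+ cells. The part of these markers in the cadherin differences was not tested.

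Of 8 other type II genes measured, 2 were higher in GFP- cells and 1 lower, with a median log2 difference of 0.20 beside 0.051 over all genes. Cdh9 was at 7.53 and 7.72 in GFP- cells, against 6.24 and 6.48 in GFP+ cells (log2 difference 1.26, limma adjusted p = 0.0156). Cdh22 was higher by 0.62 (limma adjusted p = 0.0285) and Cdh20 was lower by a log2 difference of -0.73 (limma adjusted p = 0.0493). Cdh9 therefore moved against Cdh6, a cadherin of the same type. Cdh10 and Cdh7 differed by 0.28 (limma adjusted p = 0.0910) and 0.19 (limma adjusted p = 0.432). Without GFP+ replicate 1, Cdh3 (0.0515), Cdh9 (0.0549), Cdh20 (0.135) and Cdh22 (0.0814) did not pass, and without GFP+ replicate 2, Cdh3 (0.0588), Cdh20 (0.119) and Cdh22 (0.0685) did not. Cdh20 was also lost when arrays were centred on their medians (0.0568), after quantile normalization (0.0623) and with array weights (0.0521).

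Of 22 cadherins outside the classical group, 1 was lower in GFP- cells and none was higher. Over all 18194 genes by their most expressed probe set, 2.63% were lower and 5.4% higher. These shares stand beside this count, that of the type II genes and those of the lists below. Fat3, a giant cadherin, had a log2 difference of -1.04 (limma adjusted p = 0.0116). Fat1, a highly expressed relative, differed by 0.27 (limma adjusted p = 0.143) and Clstn1, a calsyntenin, by -0.095 (limma adjusted p = 0.463).

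Of 23 catenins and junction partners, 2 were higher in GFP- cells and 1 lower. At its most expressed probe set Ctnnb1, beta-catenin, was at 14.11 and 14.15 in GFP- cells, against 14.12 and 14.15 in GFP+ cells (log2 difference -0.0047, limma adjusted p = 0.980). Ctnna1, alpha-catenin, differed by 0.048 (limma adjusted p = 0.732) at its most expressed probe set. Their less expressed probe sets did not pass either, with log2 differences of 0.32 and 0.36 for Ctnnb1 and between -1.71 and 0.25 for Ctnna1. Jup, which encodes plakoglobin of adherens junctions and desmosomes, was higher by 0.85 (limma adjusted p = 0.0127). Lima1, an actin-binding partner of alpha-catenin, was higher by 0.78 (limma adjusted p = 0.0133), with 4 of its 5 probe sets called. Arvcf, a p120 relative, was lower by a log2 difference of -0.43 (limma adjusted p = 0.0499), and its other 2 probe sets did not pass. That call was lost with centred arrays (0.0558), array weights (0.05) and the mean of its probe sets (0.0544).

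Of 13 nectins and neural adhesion molecules of the immunoglobulin family, 2 were lower and 1 was higher in GFP- cells. Nrcam was at 8.50 and 8.48 in GFP- cells, against 9.59 and 9.67 in GFP+ cells (log2 difference -1.14, limma adjusted p = 0.0079), and all 4 of its probe sets were lower. Cntn1 was lower by a log2 difference of -0.64 (limma adjusted p = 0.0485) and Cntn2 was higher by 0.66 (limma adjusted p = 0.0234), both contactins of axons, and Cntn1 did not pass with centred arrays (0.0553). Nectin3 and Nectin2 differed by -0.36 (limma adjusted p = 0.0866) and 0.42 (limma adjusted p = 0.0773) at their most expressed probe sets, and 2 less expressed ones of Nectin3 were lower.

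Of 14 enzymes that process cadherins, 1 was lower in GFP- cells and none was higher. It was Pcsk5, a proprotein convertase, at 5.87 and 5.71 in GFP- cells, against 7.85 and 7.73 in GFP+ cells (log2 difference -2.00, limma adjusted p = 0.00593). A second of its 5 probe sets was lower too. Adam10, which sheds N-cadherin from the cell surface, differed by -0.46 (limma adjusted p = 0.0534) at its most expressed probe set. Its less expressed probe sets differed by 0.18, 0.0039 and 0.029 and did not pass either. The gamma-secretase subunit gene Psenen differed by 0.091 (limma adjusted p = 0.475).

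Factors known to repress E-cadherin and factors known to maintain it were listed together, and calls went in both directions. Of 16 measured, 3 were higher in GFP- cells, namely Grhl2, Esrp1 and Esrp2, and 3 were lower, namely Zeb1, Snai2 and Grhl3. Grhl2, an activator of Cdh1, was higher by 1.63 (limma adjusted p = 0.00551) at 1 of its 4 probe sets, and Esrp1, a splicing factor of epithelia, by 1.34 (limma adjusted p = 0.0127). Zeb1, a repressor of Cdh1, was at 8.68 and 8.78 in GFP- cells, against 9.67 and 9.65 in GFP+ cells (log2 difference -0.93, limma adjusted p = 0.0117). Grhl3 was lower by a log2 difference of -1.07 (limma adjusted p = 0.0101). It was at 4.69 and 4.70 in GFP- cells, against 5.70 and 5.83 in GFP+ cells, below the median of every array. Tcf3, a further repressor, differed by -0.13 (limma adjusted p = 0.365). Zeb2 differed by 0.37 (limma adjusted p = 0.238) at its most expressed probe set, while 1 less expressed probe set was lower. Of the 19 called genes of these lists, 7 were called both without GFP+ replicate 1 and without GFP+ replicate 2, namely Cdh1, Esrp1, Fat3, Grhl2, Grhl3, Nrcam and Pcsk5. Without GFP+ replicate 1 alone, the calls of Cdh9, Cntn2, Esrp2, Jup, Lima1 and Zeb1 were lost (adjusted p of 0.0545 to 0.0887), and those of Arvcf, Cdh3, Cdh20, Cdh22, Cntn1 and Snai2 were lost without either GFP+ array (0.0515 to 0.166 without GFP+ replicate 1 and 0.0588 to 0.119 without GFP+ replicate 2).

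**Figure D3:**
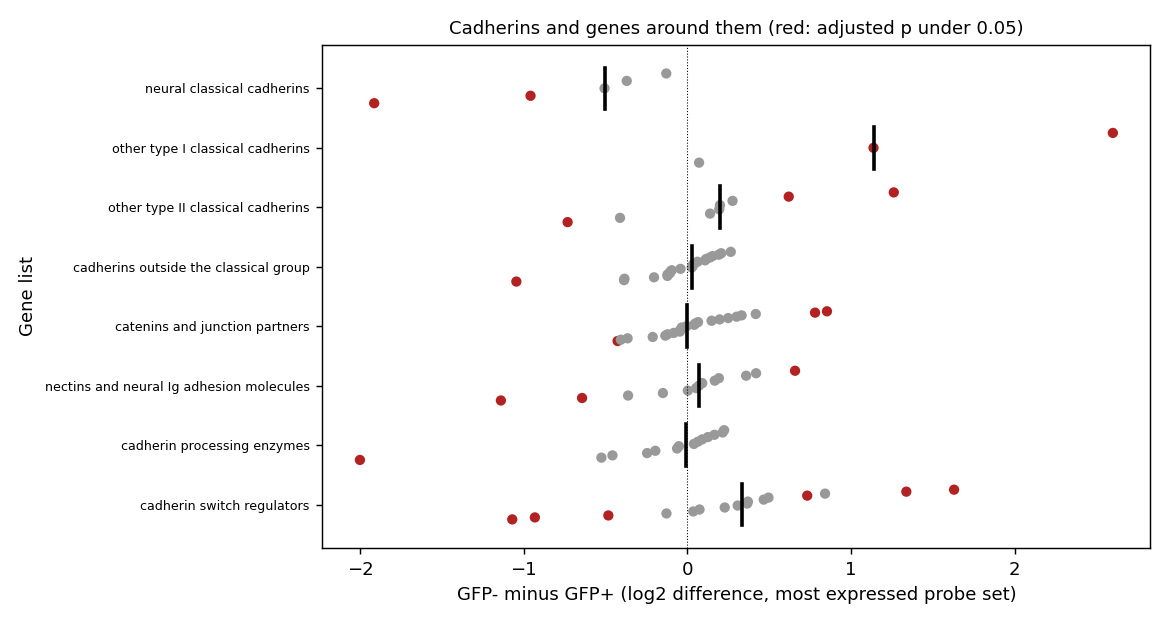
GFP- minus GFP+ log2 differences (x axis) of the 5 neural classical cadherins and the measured genes of 7 lists (y axis), 1 probe set per gene, the most expressed, and spread vertically for display only. Red circles mark an adjusted p under 0.05, and black bars are medians, at -0.51 for the neural classical cadherins and 1.14 for the other type I cadherins.

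The genes with array profiles most like those of Cdh2 and Cdh6 were sought over the 4 arrays, among all genes by their most expressed probe set, as the smallest root mean square difference after each profile was set to its own mean. For Cdh2 they were Ildr2, Hmgn3 and Mmd, at distances of 0.0195, 0.0333 and 0.0358 on the log2 scale. Ildr2, an immunoglobulin-domain gene, was at 8.44 and 8.15 in GFP- cells, against 9.31 and 9.23 in GFP+ cells. For Cdh6 they were Sorbs2, an adaptor gene of actin structures, Pcsk5 and Tmtc2, at 0.0664, 0.0719 and 0.0894. Sorbs2 was at 7.30 and 7.05 in GFP- cells, against 9.02 and 8.94 in GFP+ cells. With 4 arrays, any gene with a difference of like size comes close, and the distances are a description only.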

How the data were processed

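RNA of day-4.5 Rax::GFP- and Rax::GFP+ cells was hybridised to Affymetrix mouse genome arrays, 2 per group, named biological duplicates in the methods. RMA, run by the authors (R 2.13.0 in the submitters' processing notes), made the deposited log2 values. Values ran from 2.20 to 15.1. Probe sets with 1 gene symbol in the platform annotation numbered 34958, with several 932, and 9211 were unnamed here. No genome was used for the expression values, and the promoter window is from GRCm38.p6.

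A model of 2 groups was fitted by limma 3.58.1 (R 4.3.3), on 2 residual and 2.52 prior degrees of freedom, on all 45101 probe sets, 64 control probe sets included. For list genes the most expressed probe set was taken. Named genes are all members, up to 4 called genes of each list, by size of difference, up to 2 of its uncalled genes, by expression, and the 3 nearest profiles. The members and lists were chosen with earlier results of these data known. Data were simulated for all probe sets, with 200 changed between GFP- and GFP+ arrays. On these the fit called 33 of 100 at a log2 change of 1 and 78 of 100 at 2, with 0 false calls. In the real data 3367 probe sets were called, which makes the adjusted cut-off less strict, so these rates do not carry over. The alternatives were a replicate block, Storey's q-value (lambda 0.5), a dim filter, median centring, quantile normalization, an intensity trend, array weights, the mean of a gene's probe sets and leaving out each array, where a group left with 1 array took its spread from the other.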

Additional observations from a re-analysis of the deposited data

How the results depend on the processing

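The number of arrays limits the precision. Centring the arrays on their medians, quantile normalization and array weights left 4 cadherin probe sets lower in GFP- cells, the dim filter and Storey's q-value gave 5 and the intensity trend 6, and none was higher in any of these settings. Storey's q-value called 2907 probe sets higher and 3256 lower in all, and the intensity trend 3230 and 3732. The trend also called 17 listed genes higher and 15 lower, against 10 and 9. Leaving out 1 array at a time gave 0 to 3 cadherin probe sets lower, 0 to 1059 probe sets higher and 0 to 1919 lower in all, and 0 to 8 listed genes higher and 0 to 5 lower, with the log2 difference of Cdh2 between -1.11 and -0.80.

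Over all probe sets, deviations from group means did not correlate between same-numbered arrays (correlation -0.05), and the main model left the replicate number out. A single correlation over all probe sets cannot exclude pairs, and the labels do not say whether same-numbered arrays came from 1 sort. Some markers, among them Irx3 and Pax6, shifted the same way in both groups by replicate number, and others, among them Irx1, did not. With the replicate number as a block, on fewer residual degrees of freedom, 0 probe sets passed in either direction, 0 cadherin probe sets and 0 listed genes among them, while 5716 and 5303 probe sets had an unadjusted p under 0.05 toward GFP- and GFP+ cells, and 1 and 6 of the 12 cadherin probe sets did. The log2 difference of Cdh2 was then -0.96 (limma adjusted p = 0.0884).

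Signs turned only for differences that were not called. Ctnnb1 had 0.034 after centring, 0.011 after quantile normalization, -0.024 to 0.015 without 1 array, and 0.23 as the mean of its probe sets. At 1449422_at, Cdh4 had -0.020 to 0.045 without 1 array. As means of their probe sets, Cdh4 had 0.090, Cdh10 -0.051, Clstn1 0.0027, Ctnna1 -0.33 and Zeb2 -0.38. The cause was not tested.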
